A study of Mus musculus with 66 samples.

Results

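Trimethylation of histone H3 at lysine 4 (H3K4me3) was compared between 3 EN and 3 CV libraries of mouse small intestinal organoids over all 94469 regions of the deposited table. These 6 libraries were taken from 66 samples in the series, of which 39 have a column in the table of regions. Every culture was grown from Lgr5GFPDTR/+ organoids in a medium with EGF, Noggin and R-Spondin-1 (ENR). CV organoids received ENR plus CHIR99021 (3 µM), which activates Wnt signalling by inhibiting GSK3, and valproic acid (1 mM), a histone deacetylase inhibitor, for 5 days. EN organoids were grown for 2.5 days in ENR from which R-Spondin-1, an enhancer of Wnt signalling, was left out. By the labels, CV is enriched for stem cells and EN is differentiated. R-Spondin-1, the 2 added compounds and the time in culture therefore all differed between the groups, and their parts cannot be told apart. Organoids are mixtures of epithelial cells, so a change in cell composition and a change within cells cannot be told apart either. The 3 ENR libraries entered the estimate of the spread and the filter on the mean score, but not the contrast. Nothing in the labels says that replicates came from separate animals or cultures, so p-values measure the spread between these libraries, which may be technical.

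H3K4me3 is deposited by the SET1/COMPASS and MLL complexes, mostly on nucleosomes around transcription start sites. It is broad and constant at CpG-rich promoters of genes used by most cells, and sharper and more variable at CpG-poor promoters of tissue-specific genes. In stem and progenitor cells, CpG-rich promoters of silent developmental genes can carry it together with H3K27me3, the mark of the Polycomb complexes, a state called bivalent.

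The labels were checked against RNA from 4 further libraries of each culture. Lgr5, the receptor that marks intestinal stem cells, was at 31.3 ± 1.51 TPM (SD, n = 4) in CV and 0.514 ± 0.212 TPM in EN. Alpi, the intestinal alkaline phosphatase of enterocytes, was at 114 ± 7.69 TPM in CV and 371 ± 15.6 TPM in EN. The groups did not overlap for either gene.

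A library of EN stood apart. The deposited score is a read count per region, normalized between libraries and rounded. In EN replicate 1, 57.6% of the regions held a score of 1, and scores of 4, 7, 11, 14, 18 and 21 were more frequent than their neighbours, a spacing of 3.33. The other 8 libraries held a score of 1 in 20.9% to 27.7% of the regions and showed no such spacing. Across the regions tested, log2 scores of EN replicate 1 correlated with those of EN replicates 2 and 4 at r = 0.861 and 0.795, against 0.937 between the latter, and reached r = 0.881 with ENR replicate 4. Summed scores ran from 984840 to 1100967 in EN and from 817265 to 940440 in CV, so EN was above CV in every library. Counts without EN replicate 1 and under other scalings are therefore given beside the main counts and those of the larger gene lists.

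Stretches picked from the changes described below are shown first, 5′ to 3′ along the gene, with CpG dinucleotides in capitals. They are the 300 bases before 3 start sites where the mark rose, the 300 bases before the Lgr5 start site, where it fell, and the central 300 bases of a region upstream of Axin2, where it fell most. In mm9, they lie at chr3:72770789-72771088 (minus strand, Sis), chr3:3633850-3634149 (plus strand, internal start site of Hnf4g), chr2:163367457-163367756 (minus strand, Hnf4aos), chr10:115024837-115025136 (minus strand, Lgr5) and chr11:108770890-108771189 (plus strand, upstream of Axin2). The first 4 end at the base before the annotated start site.
Sis: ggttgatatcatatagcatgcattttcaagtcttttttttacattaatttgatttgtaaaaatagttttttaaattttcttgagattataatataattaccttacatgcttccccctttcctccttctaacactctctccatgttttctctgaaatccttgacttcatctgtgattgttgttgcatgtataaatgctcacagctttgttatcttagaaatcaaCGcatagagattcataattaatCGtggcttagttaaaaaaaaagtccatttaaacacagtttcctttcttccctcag
Hnf4g, internal start: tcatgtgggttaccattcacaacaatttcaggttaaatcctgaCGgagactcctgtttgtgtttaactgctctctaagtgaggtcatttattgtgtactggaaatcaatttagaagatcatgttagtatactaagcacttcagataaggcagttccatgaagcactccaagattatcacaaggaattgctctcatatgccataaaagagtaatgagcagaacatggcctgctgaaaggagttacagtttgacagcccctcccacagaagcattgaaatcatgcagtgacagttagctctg
Hnf4aos: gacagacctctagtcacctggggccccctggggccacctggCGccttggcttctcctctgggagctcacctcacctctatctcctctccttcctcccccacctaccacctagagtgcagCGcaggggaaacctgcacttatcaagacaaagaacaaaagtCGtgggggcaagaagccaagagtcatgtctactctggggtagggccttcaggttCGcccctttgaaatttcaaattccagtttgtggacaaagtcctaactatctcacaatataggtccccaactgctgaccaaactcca
Lgr5: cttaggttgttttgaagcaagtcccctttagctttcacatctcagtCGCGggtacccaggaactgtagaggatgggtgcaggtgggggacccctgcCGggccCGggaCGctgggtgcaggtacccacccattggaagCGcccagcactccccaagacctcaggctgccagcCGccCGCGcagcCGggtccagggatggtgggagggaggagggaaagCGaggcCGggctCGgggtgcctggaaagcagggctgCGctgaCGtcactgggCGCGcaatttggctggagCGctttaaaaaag
Upstream of Axin2: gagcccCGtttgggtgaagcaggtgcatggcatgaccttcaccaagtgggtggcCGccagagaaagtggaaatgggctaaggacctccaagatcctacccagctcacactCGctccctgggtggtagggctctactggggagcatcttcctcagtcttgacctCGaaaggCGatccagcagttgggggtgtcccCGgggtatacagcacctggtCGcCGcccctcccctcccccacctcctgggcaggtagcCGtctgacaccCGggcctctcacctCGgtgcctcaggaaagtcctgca
The stretches with a rise hold 2, 1 and 4 CpG dinucleotides, and those with a fall hold 18 and 11. These stretches were picked and do not stand for all changes. The median called rise held 7.03 CpG per 100 bases, the median fall 5.99 and the median region tested 5.29. At changes of at least 2-fold the medians were 5.25 and 6.15.

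Both directions of change were found, and the falls were larger. Of 14779 regions with a mean score of at least 10, 2438 differed between EN and CV at an adjusted p under 0.05 (limma), which is 16.5% of the regions tested. The mark was higher in EN at 1409 regions (9.53%) and lower at 1029 (6.96%). A difference of at least 2-fold was reached by 272 of the rises (1.84% of the regions tested) and by 748 of the falls (5.06%). The 3 EN values lay above the 3 CV values at 1389 of the 1409 rises and below them at 1017 of the 1029 falls, against 19.8% and 11.2% of all regions tested. The median difference over all regions was 0.12 on the log2 scale, so relative to the median region each rise given here is smaller by that amount and each fall is larger.

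The filter on the mean score bears on the largest changes. A region whose other groups both had means under 10 passed only through the group where it was high and so had to differ. This held for 42 of the 272 rises and 98 of the 748 falls of at least 2-fold. Among the largest changes named here it held for 5 of 10 promoter rises (G6pc, Sis, Ces1f, Apoa4 and the internal start site of Hnf4g), for 5 of 10 promoter falls (Mdga2, 4930461G14Rik, Dnajc6, Fbxl2 and Tnfrsf19), for the distal rise near Ypel2 and for the distal falls near Axin2 and Tbx3. Their values are descriptions, and their p-values do not support more than that. The same holds for Alpi, Tac1, Hoxc6 and Hoxd3, for the Hnf4g region centred 126606 bp downstream and for the region at chr2:163366410-163366724.

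The split between rises and falls turned with the scaling of the libraries. Rises and falls numbered 568 and 1043 after quantile normalization, 327 and 1580 with equal library totals, and 295 and 1715 with the median ratio at strong regions, where the median region was at -0.10. Called the same way under the deposited scores and these 3 scalings were 229 rises and 846 falls. Of the changes of at least 2-fold, 144 of 272 rises and 649 of 748 falls were called under all 4. Without EN replicate 1, 2952 regions were higher and 1524 lower, and these held 1342 of the 1409 rises and 1011 of the 1029 falls. At an adjusted p under 0.001, 1 rise and 18 falls were left. The count of 2438 changed regions became 1176, 896 and 685 without CV replicate 2, 3 or 4, and 4476, 1075 and 2940 without EN replicate 1, 2 or 4. Fitted on the 6 EN and CV libraries alone, 836 regions differed, 394 higher and 442 lower. Of the 104 named regions that were called, 57 still were. Log2 scores correlated at r = 0.955 to 0.966 among the ENR libraries, 0.922 to 0.960 among CV and 0.795 to 0.937 among EN. The spread shared with ENR thus included the closest group.

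**Figure D1:**
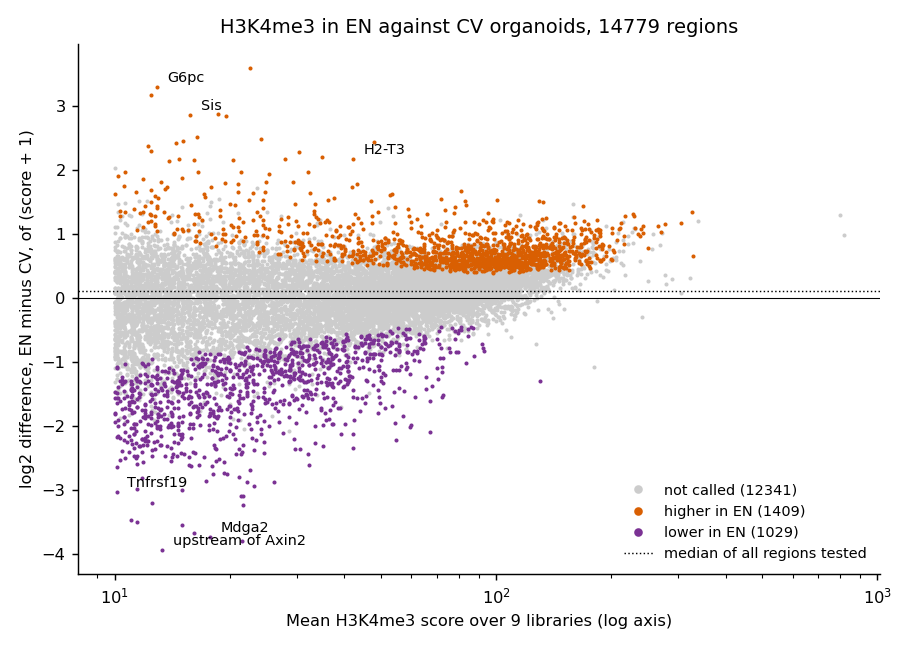
Each point is 1 of 14779 regions, with its mean H3K4me3 score over 9 libraries on a log axis and its log2 difference between EN and CV, colored by call. The 1029 falls lie mostly at low scores and reach below -3, while most of the 1409 rises lie at high scores and stay under 2, and the dotted line marks the median difference of 0.12.

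Where a region stood in the range of H3K4me3 went with the direction of its change. Among the 3295 regions with a mean score of at least 80, 850 rose (25.8%) and 12 fell (0.364%). Among the 3272 regions between 10 and 20, 82 rose (2.51%) and 423 fell (12.9%). The rise at strong regions was tied to the scaling, with 1.76% of the strong regions called higher after quantile normalization, 4.07% with equal totals and 3.55% with the median ratio. Falls took 10.8%, 17.0% and 17.8% of the regions between 10 and 20 under these scalings.

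Regions that also carried H3K27me3 were called lower more often. Of 1289 regions with a mean H3K27me3 score of at least 20, 407 fell (31.6%) and 43 rose (3.34%). Of the 13490 regions under 20, 622 fell (4.61%) and 1366 rose (10.1%). The gap was also present at matched H3K4me3 levels. Between H3K4me3 scores of 10 and 20, 36.8% of the regions with H3K27me3 fell and 7.59% of the others, and between 20 and 40 the shares were 34.8% and 9.79%. Under the other 3 scalings, 24.5%, 35.9% and 37.0% of the regions with H3K27me3 fell, against 5.39%, 8.28% and 9.18% of the others, and without EN replicate 1 the shares were 50.0% and 6.52%. These shares are descriptions of regions, which are not replicates.

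**Figure D2:**
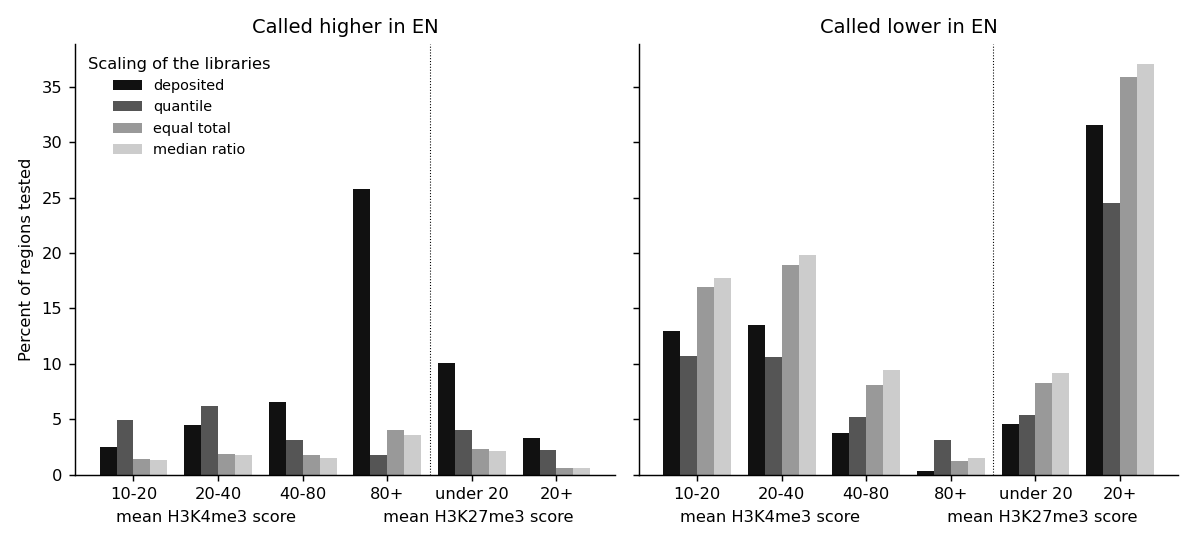
Bars give the percent of regions called higher (left) or lower (right) in EN, by mean H3K4me3 score and, right of the dotted line, by mean H3K27me3 score, under 4 scalings of the libraries. The share called higher at scores of 80 or more drops from 25.8% to between 1.76% and 4.07% under the other scalings, while the share called lower among regions with H3K27me3 stays between 24.5% and 37.0%.

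Most regions tested lay at promoters, whether changed or not. A start site was within 500 bp of 1271 of the 1409 rises, 90.2% (95% Wilson interval 88.5% to 91.7%), of 841 of the 1029 falls, 81.7% (79.3% to 84.0%), and of 79.5% of all regions tested. The intervals cover counting error only and treat regions as independent. Among changes of at least 2-fold the shares were 73.2% and 77.9%, below that of all regions. With a filter of scores above 0 in at least 3 libraries, 34.7% of the rises and 56.8% of the falls lay within 500 bp. Rises had a median width of 1605 bp and 7.03 CpG per 100 bases, falls 1089 bp and 5.99, and all regions 1288 bp and 5.29. The rises of at least 2-fold were narrower and poorer in CpG, at 966.5 bp and 5.25, and the falls of at least 2-fold held 6.15 CpG per 100 bases.

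The 10 largest rises at promoters were at G6pc, Sis, Leap2, Ces1f, Apoa4, Nr1i3, H2-T3, Rbp2, Pdzd3 and an internal start site of Hnf4g. At G6pc, the glucose-6-phosphatase that releases free glucose, scores were 1, 3 and 3 in CV and 19, 36 and 40 in EN (log2 difference 3.30 ± 0.42 (SE), adjusted p = 0.0018). At Sis, the brush border sucrase-isomaltase, scores were 3, 4 and 5 in CV and 27, 36 and 43 in EN (2.86 ± 0.34, adjusted p = 0.0013). The groups were well apart in both, and EN replicate 1 was the lowest EN library. Their RNA rose with them, from 16.8 ± 1.82 to 257 ± 15.7 TPM for G6pc and from 336 ± 25.9 to 6107 ± 221 TPM for Sis, with no overlap of the 4 CV and 4 EN libraries.

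Apoa4, an apolipoprotein of chylomicrons, had scores of 2, 7 and 3 in CV and 12, 29 and 33 in EN (2.37 ± 0.47, adjusted p = 0.0087). Rbp2, which binds retinol in enterocytes, had 6, 8 and 12 in CV and 32, 35 and 60 in EN (2.16 ± 0.33, adjusted p = 0.003). Leap2, the precursor of a secreted peptide, had 5, 10 and 9 in CV and 23, 62 and 76 in EN (2.49 ± 0.46, adjusted p = 0.0067). These 3 promoters were weak in CV and reached moderate scores in EN. H2-T3, a non-classical MHC class I gene of the gut epithelium, was stronger in CV and had the tightest change, from 15, 18 and 22 to 71, 77 and 112 (2.17 ± 0.22, adjusted p = 0.00072). Nr1i3, the xenobiotic receptor CAR, rose from 5, 14 and 15 to 33, 56 and 68 (2.18 ± 0.38, adjusted p = 0.0053). Ces1f, a carboxylesterase, was at 2.42 ± 0.56 (adjusted p = 0.016) and Pdzd3, a scaffold protein of the brush border, at 1.96 ± 0.34 (adjusted p = 0.0049). The start site of Hnf4g is described with that gene. These promoters held between 0.315 (Ces1f) and 2.03 (H2-T3) CpG per 100 bases, against 5.29 in the median region tested.

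The 10 largest falls lay at promoters of mixed CpG content, 6 of them above the median region. Mdga2, a cell adhesion protein of neurons, had scores of 52, 47 and 43 in CV and 3, 1 and 5 in EN (-3.73 ± 0.43, adjusted p = 0.0011). Tmem132c, a transmembrane protein, had 41, 31 and 35 in CV and 1, 2 and 3 in EN (-3.66 ± 0.34, adjusted p = 0.00068). Kctd1, a BTB domain protein, had 53, 38 and 45 in CV and 11, 2 and 0 in EN (-3.80 ± 0.66, adjusted p = 0.0051). EN and CV were far apart in all 3, and the ENR libraries lay below CV, at 2, 3 and 4 for Mdga2, 9, 11 and 12 for Tmem132c and 16, 14 and 15 for Kctd1.

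Dnajc6, a co-chaperone of clathrin uncoating, fell from 29, 22 and 22 to 1, 1 and 2 (-3.46 ± 0.37, adjusted p = 0.00073). Meis3, a homeobox factor, fell from 43, 38 and 50 to 1, 11 and 5 (-3.08 ± 0.50, adjusted p = 0.0039). Tnfrsf19 (Troy), a Wnt target expressed in intestinal stem cells, fell from 19, 23 and 26 to 1, 1 and 5 (-3.03 ± 0.49, adjusted p = 0.0037). Its RNA was at 4.80 ± 0.581 TPM in CV and is listed at 0 in all 4 EN libraries. Kif12 (a kinesin), Fbxl2 (an F-box protein), Gprc5c (an orphan receptor) and 4930461G14Rik, a RIKEN transcript, lay between -3.09 and -3.55. CpG per 100 bases was 8.93 at Dnajc6, 8.58 at Mdga2 and 8.84 at Tmem132c, but 2.64 at Kif12 and 0.856 at 4930461G14Rik.

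**Figure D3:**
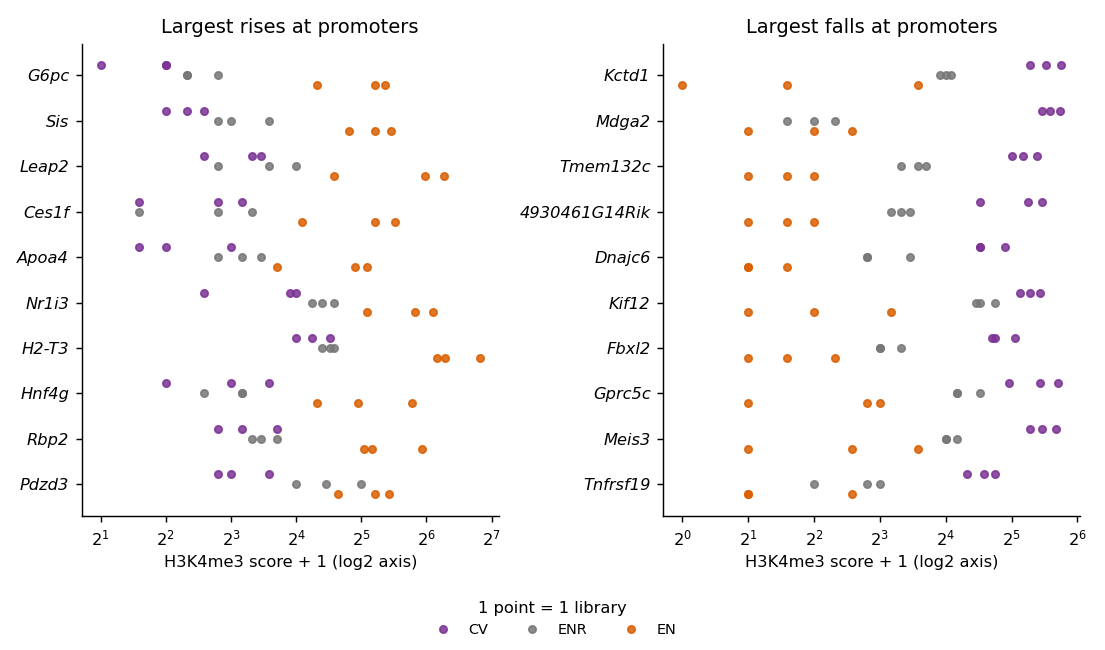
Points are the H3K4me3 scores plus 1 of single libraries (log2 axis) at the 10 promoter regions with the largest rises (left) and the 10 with the largest falls (right), colored by culture. EN and CV do not overlap at any of the 20, and ENR lies between CV and EN at most of them, for example at 16, 14 and 15 for Kctd1.

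Away from start sites, the largest fall of the whole comparison lay upstream of Axin2, a negative regulator and standard target of Wnt signalling. The region at chr11:108770635-108771444, 10219 bp from the nearest Axin2 start site and outside any coding gene, had scores of 26, 33 and 30 in CV, 11, 8 and 9 in ENR and 1 in each EN library (-3.93 ± 0.32, adjusted p = 0.00021). The promoter of Axin2 itself had 142, 117 and 105 in CV and 217, 153 and 85 in EN and was not called (0.23 ± 0.28, adjusted p = 0.61). Its sign turned under quantile normalization and, at -0.08, without EN replicate 1. Another Axin2 region, 204 bp from a start site, had 35, 26 and 32 in CV and 6, 17 and 23 in EN. The groups did not overlap there, but it was not called (-1.14 ± 0.39, adjusted p = 0.064). Axin2 RNA was at 28.0 ± 1.83 TPM in CV and 0.394 ± 0.105 TPM in EN.

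The other distal falls of the 3 largest lay at chr5:119722367-119723474, 397204 bp from the start of Tbx3, a T-box factor (24, 32 and 30 in CV, 1, 2 and 2 in EN), and 732 bp from Slco5a1, a transporter (32, 31 and 18 in CV, 1, 4 and 3 in EN). The largest distal rises lay at chr11:86718538-86718927, 88282 bp from Ypel2, the nearest coding gene (5, 3 and 3 in CV, 45, 82 and 43 in EN), at chr5:30022308-30022816, 39412 bp from Dnajb6 (2, 1 and 3 in CV, 22, 23 and 31 in EN), and at chr2:3693448-3694014 inside Fam107b (4, 8 and 3 in CV, 38, 42 and 41 in EN). A gene near a region is a position only, and no link between them was tested. The region near Ypel2 also carried H3K27me3, at a score of 70.3 ± 10.5 (SD, n = 3) in CV and 32.3 ± 19.7 in EN, and the region in Fam107b at 57.0 ± 4.36 in CV and 30.3 ± 12.7 in EN.

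Stem cell and Wnt target genes fell where they were called. Of 30 genes listed, 29 had a tested promoter region, 10 fell, none rose and 19 were not called, and the median difference was -0.46 against 0.12 over all regions. Falls made up 6.96% of all regions tested. Under quantile normalization, equal totals and the median ratio 10, 12 and 13 of the genes fell, and 14 without EN replicate 1, and 1 gene rose under quantile normalization and 1 without EN replicate 1. Lgr5 fell from 62, 62 and 57 to 30, 24 and 18 (-1.32 ± 0.19, adjusted p = 0.0025). Cd44, an adhesion receptor and Wnt target, fell from 49, 67 and 63 to 18, 23 and 23 (-1.44 ± 0.19, adjusted p = 0.0019). Ascl2, the stem cell transcription factor, fell from 59, 52 and 59 to 26, 23 and 27 (-1.13 ± 0.17, adjusted p = 0.0029). The groups did not overlap at these 3, and each was called under all 20 fits. Tnfrsf19, Aqp4, Lef1, Igfbp4, Nkd1, Ephb3 and Hopx were the other falls, from -3.03 (Tnfrsf19) to -0.46 (Hopx).

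Lgr5 held further regions with the mark. The region over its start site, into which the printed stretch reaches, had 31, 21 and 20 in CV and 17, 4 and 4 in EN (-1.68 ± 0.44, adjusted p = 0.026). Inside the gene, a region centred 82871 bp downstream had 23, 37 and 37 in CV and 3, 9 and 8 in EN (-2.20 ± 0.43, adjusted p = 0.0086). Its neighbour had 16, 31 and 26 in CV and 9, 10 and 21 in EN and was not called (-0.87 ± 0.35, adjusted p = 0.11). Groups of at least 4 falls with less than 100 kb between them were looked for after the values were seen, and some of them are given here. Besides Lgr5, all 4 tested regions fell at Tead1 and Arntl (median -1.80), and 4 of 5 fell around Wnt6 and Wnt10a, a pair of Wnt ligands (median -1.32).

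At Lgr5, Cd44 and Ascl2 the mark was still measured in EN where RNA was low. EN libraries held scores of 18 to 30 at Lgr5, where RNA was at 0.514 TPM. Cd44 RNA was at 54.5 ± 3.34 TPM in CV and 1.37 ± 0.370 TPM in EN, and Ascl2 RNA had a mean of 0.0755 TPM in EN. Promoters of some other stem cell and proliferation genes were not called in the deposited scores, while their RNA was lower in EN with no overlap. Sox9, a crypt transcription factor, was at -0.28 ± 0.23 (adjusted p = 0.44), with RNA from 13.8 ± 1.29 to 1.27 ± 0.27 TPM. Smoc2, a stem cell marker, was at -0.47 ± 0.15 (adjusted p = 0.056) but was called lower with equal totals, with the median ratio and without EN replicate 1 (adjusted p = 0.021), with RNA from 181 ± 9.97 to 16.6 ± 0.631 TPM. Mki67, the marker of dividing cells, was at 0.22 ± 0.17 (adjusted p = 0.40), with RNA from 29.7 ± 1.86 to 1.49 ± 0.189 TPM. The sign at Mki67 turned under quantile normalization and the median ratio. Myc, the proliferation factor, was at -0.04 ± 0.17 (adjusted p = 0.88).

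Genes of the enterocyte brush border rose where they were called. Of 28 listed, 14 had a tested promoter region, 10 were under the filter and 4 had no region at a start site. Of the tested genes, 6 rose, none fell, all 14 differences were above 0, and the median was 0.70 against 0.12 over all regions. Differences above 0 were common in the deposited scores, with 17 of 20 genes used in every cell above 0 too. Rises made up 9.53% of all regions tested. A gene that passed the filter only through its EN scores had to differ, so these counts describe the tested genes only. Alpi rose from 6, 7 and 6 to 16, 24 and 30 (1.69 ± 0.38, adjusted p = 0.014). Slc5a1, the sodium-glucose transporter SGLT1, rose from 51, 66 and 75 to 91, 101 and 141 (0.78 ± 0.19, adjusted p = 0.02). Dpp4 and Enpep, brush border peptidases, and Myo1a, a microvillus myosin, rose by 0.67, 0.99 and 0.90. Vil1, which bundles microvillus actin, was at 0.44 ± 0.20 and was not called (adjusted p = 0.16). Without EN replicate 1 it was called higher (0.67, adjusted p = 0.0062). Of the 14, 6 rose under quantile normalization, 4 with equal totals or the median ratio and 10 without EN replicate 1, and none fell.

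Of 17 tested genes of fat absorption, in 16 distinct regions because Abcg5 and Abcg8 share one, 6 rose, 1 fell, 10 were not called and the median was 0.50. Rises made up 9.53% of all regions tested and falls 6.96%. Under quantile normalization 7 rose, with equal totals or the median ratio 4, and without EN replicate 1 11, with 1 fall in each. Fabp1, a fatty acid binding protein, rose from 19, 32 and 34 to 43, 95 and 129 (1.52 ± 0.36, adjusted p = 0.018). Creb3l3, a transcription factor of lipid metabolism, rose from 34, 45 and 42 to 66, 117 and 158 (1.39 ± 0.27, adjusted p = 0.0081). Apob, the structural protein of chylomicrons, rose by 0.92, Fabp2 by 1.31 (with overlap of EN and CV), Dgat1 by 0.55 and Apoa4 by 2.37. Dgat1 was not called under any of the other 3 scalings, and Fabp2 not with equal totals or the median ratio. Scarb1, the HDL receptor SR-BI, fell from 54, 47 and 71 to 18, 12 and 12 (-1.96 ± 0.23, adjusted p = 0.0011), and its RNA from 22.7 ± 1.07 to 1.98 ± 0.491 TPM.

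**Figure D4:**
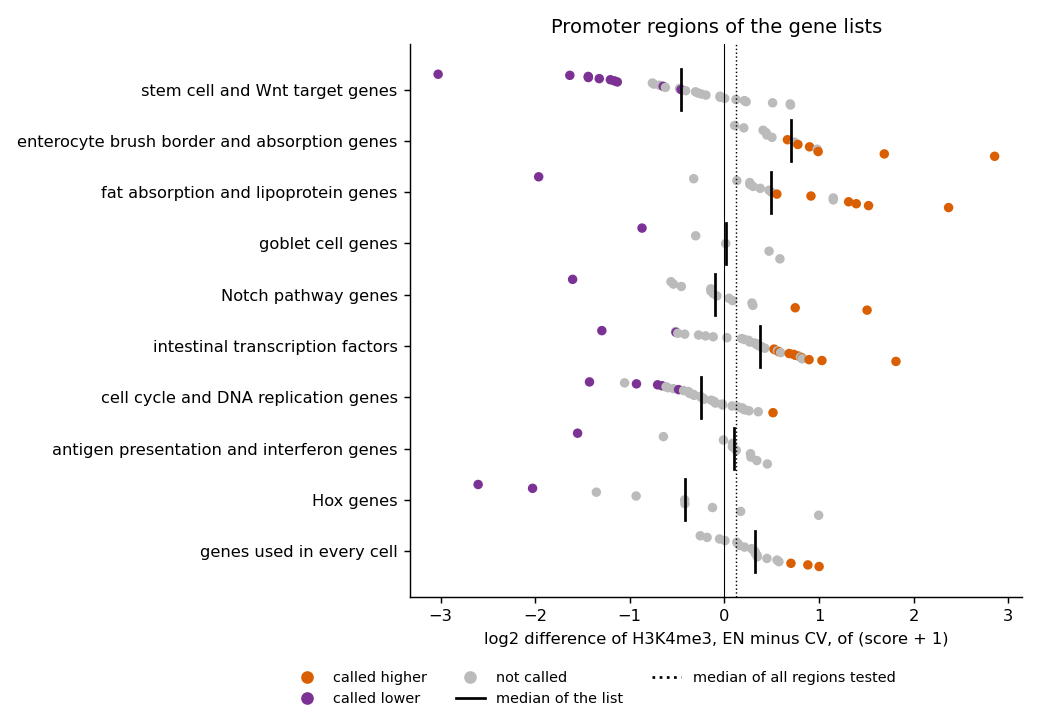
Each point is the log2 difference of H3K4me3 between EN and CV at the promoter region of a gene, for lists with at least 5 tested genes, colored by call, and black bars are list medians. The stem cell list has its median at -0.46 and the enterocyte list at 0.70, either side of the dotted median of all regions at 0.12.

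Transcription factors of the intestine moved both ways. Of 36 tested, 11 rose, 2 fell and the median was 0.38, against 9.53% rises and 6.96% falls among all regions. Cdx2, the caudal factor of intestinal identity, rose by 0.75 ± 0.19 (adjusted p = 0.022), Gata6 by 0.82 ± 0.24 (adjusted p = 0.036) and Esrra, a regulator of mitochondrial genes, by 0.79 ± 0.13 (adjusted p = 0.0041). Ppara, Foxa1, Vdr, Maf, Klf5, Zbtb7a, Zbtb7b and Hnf4aos were the other rises. Foxa2 fell by 0.51 ± 0.14 (adjusted p = 0.028) and Ppargc1a, a coactivator, fell by 1.29 ± 0.31 (adjusted p = 0.019). The rises were tied to the scaling and to EN replicate 1, with 4 under quantile normalization, 2 with equal totals or the median ratio and 17 without that library. RNA did not move with the mark at each of them, since Foxa1 was at 3.04 ± 0.245 TPM in CV and 1.33 ± 0.153 TPM in EN. Cdx2 RNA was also lower in EN, at 186 ± 3.98 TPM in CV and 136 ± 9.44 TPM in EN. RNA of Gata6 and Esrra was higher in EN, from 27.1 ± 0.992 to 42.9 ± 3.56 TPM and from 138 ± 6.74 to 222 ± 21.1 TPM.

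Hnf4g and Hnf4a code for paralogous nuclear receptors expressed in the intestinal epithelium. Hnf4g has tested regions at its first start site and others centred 126025 and 126606 bp downstream of it. The first had scores of 39, 56 and 66 in CV and 48, 59 and 54 in EN (0.03 ± 0.19, adjusted p = 0.94). The second, at chr3:3633741-3634369 over an annotated start site, had 3, 7 and 11 in CV, 8, 8 and 5 in ENR and 19, 30 and 54 in EN (2.16 ± 0.47, adjusted p = 0.012). The third had 7, 10 and 10 in CV and 12, 41 and 46 in EN (1.58 ± 0.44, adjusted p = 0.031). The start sites of 1 gene thus differed in their change, with the upstream one near the median of all regions. Hnf4g RNA, from the 1 transcript the table holds, was at 48.1 ± 2.18 TPM in CV and 444 ± 28.7 TPM in EN.

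At Hnf4a the strongest promoter, at the upstream start site, had 69, 96 and 101 in CV and 69, 86 and 88 in EN (-0.12 ± 0.18, adjusted p = 0.70), and the regions around its downstream start sites were not called. Between them, a pair of regions rose. One lies over the start site of Hnf4aos, a long non-coding RNA on the opposite strand, at chr2:163366942-163367834, with 10, 11 and 14 in CV, 19 in ENR replicates 1 and 2, 18 in ENR replicate 4, and 31, 47 and 55 in EN (1.81 ± 0.26, adjusted p = 0.0025). The other, at chr2:163366410-163366724, had 4, 6 and 6 in CV and 30, 27 and 23 in EN (2.14 ± 0.29, adjusted p = 0.002). Hnf4a RNA was at 271 ± 7.36 TPM in CV and 211 ± 6.74 TPM in EN.

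**Figure D5:**
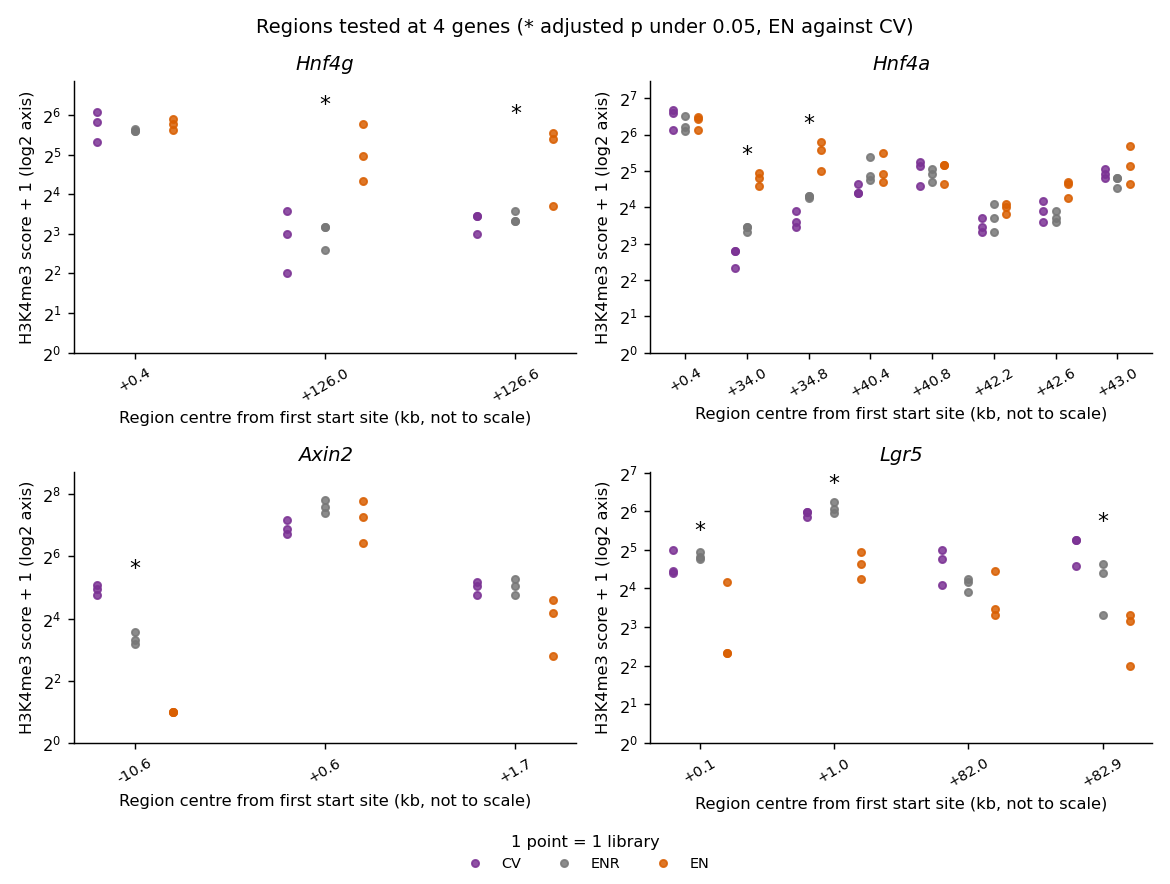
Points are H3K4me3 scores plus 1 of single libraries (log2 axis) at each region tested in or nearest to Hnf4g, Hnf4a, Axin2 and Lgr5, ordered by the distance of its centre from the first start site, with a star where EN and CV differed. The rises at Hnf4g lie 126025 and 126606 bp downstream and the fall near Axin2 lies at -10624 bp, while the first promoters of Hnf4g, Hnf4a and Axin2 carry no star.

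A region called higher and another called lower, both at start sites of the gene itself, were found for 12 genes. They were picked by these calls, and the number of genes with several tested start regions is not given, so the count has no background. Of these, 4 were still called both ways under each of the other 3 scalings, among them Jakmip1, Rgs3 and Ubtf in all 3, and 11 without EN replicate 1. At Pde4dip, a centrosome and Golgi scaffold, a promoter went from 64, 67 and 77 to 123, 98 and 118 (0.69 ± 0.14, adjusted p = 0.01, not called under quantile normalization) and another from 45, 41 and 49 to 4, 11 and 15 (-2.22 ± 0.37, adjusted p = 0.0042). At Mecom, a zinc finger regulator, a promoter went from 26, 27 and 21 to 58, 45 and 33 (0.82 ± 0.24, adjusted p = 0.036). This rise was not called under any of the other 3 scalings. Another Mecom promoter went from 14, 24 and 26 to 4, 3 and 2 (-2.47 ± 0.36, adjusted p = 0.0027). At Rgs3, a regulator of G protein signalling, one went from 16, 20 and 25 to 47, 48 and 48 (1.21 ± 0.21, adjusted p = 0.0055) and another from 56, 69 and 78 to 54, 31 and 39 (-0.72 ± 0.21, adjusted p = 0.036). EN and CV did not overlap at any of these 6 regions, though 54 in EN replicate 1 was close to 56 in CV replicate 2 at the second region of Rgs3. The other genes were Camta1, Jakmip1, Lrrfip1, Mast3, Phactr2, Plekha7, Pnkd, Sgms1 and Ubtf. The rising regions of Pnkd (shared with Aamp) and Sgms1 turned in sign after quantile normalization.

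Of 14 tested Notch pathway genes, 2 rose and 1 fell, with a median of -0.10, counts near the 9.53% and 6.96% of all regions. Under each of the other scalings 1 rose, and without EN replicate 1, 2 rose and 3 fell. Hes1, the main Notch effector that represses the secretory fate, rose from 46, 48 and 30 to 181, 128 and 69 (1.51 ± 0.32, adjusted p = 0.011). Rbpj, the DNA-binding partner of Notch, rose by 0.75 ± 0.15 (adjusted p = 0.0084) but was not called under any of the other 3 scalings, and Lfng, which glycosylates Notch receptors, fell from 85, 70 and 91 to 28, 22 and 29 (-1.60 ± 0.17, adjusted p = 0.00072). Notch1 and Dll1 were at -0.14 and 0.30 and were not called.

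Of 33 tested cell cycle genes, 5 fell, 1 rose and 27 were not called, with a median of -0.25, against 6.96% falls and 9.53% rises among all regions. Under quantile normalization 8 fell, with equal totals or the median ratio 10, with no rise, and without EN replicate 1 7 fell and 2 rose. Ccnb2 and Cdc20, which act in mitosis, fell by 1.43 and 0.93, and Ccnd1, Cdk1 and Tyms fell by 0.71, 0.48 and 0.66. Cdkn1a, the p21 inhibitor of the cell cycle, rose by 0.51 (adjusted p = 0.05), but was at -0.0021 after quantile normalization and was called under none of the other 3 scalings. Of 39 Hox genes listed, 15 had no region at a start site, 15 were under the filter and 9 were tested. Hoxc6 (31, 44 and 41 in CV, 4, 5 and 8 in EN) and Hoxd3 (49, 25 and 24 in CV, 11, 9 and 3 in EN) fell and none rose. The median was -0.42, and 4 fell without EN replicate 1. Falls made up 6.96% of all regions tested. Hoxc6 and Hoxd3 passed the filter only through their CV scores and so had to differ, and the count describes the tested genes only. H2-Ab1, an MHC class II gene, was the only fall among 10 tested genes of antigen presentation, from 35, 49 and 46 to 9, 13 and 23 (-1.55 ± 0.32, adjusted p = 0.01), with RNA from 37.5 ± 2.42 to 1.80 ± 0.615 TPM. The median of these 10 was 0.11.

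Few genes of the secretory lineages could be tested. Agr2, a protein disulfide isomerase of goblet cells, fell by 0.87 (adjusted p = 0.048) while its RNA went from 154 ± 5.06 to 785 ± 52.0 TPM. The fall at Agr2 was not called under quantile normalization. Tac1, an enteroendocrine peptide precursor, fell from 18, 30 and 25 to 6, 3 and 10, and Pou2f3, the tuft cell factor, from 19, 20 and 20 to 4, 4 and 9. The other tested gene of each list, Insm1 (-0.17) and Il17rb (0.40), was not called. Il17rb was called higher without EN replicate 1. Chga (enteroendocrine) and Dclk1 (tuft) had no tested region. Their RNA went from 2.40 ± 0.185 to 158 ± 33.7 TPM and from 0.0789 ± 0.0594 to 5.92 ± 0.980 TPM. RNA of the other genes of these lists is not given here. The lists had 5 (goblet, median 0.01), 1 (Paneth, at 1.04), 2 (enteroendocrine, median -1.02) and 2 (tuft, median -0.66) tested genes. The Paneth gene, Pnliprp2, was not called and passed the filter only through its EN scores, and Tac1 passed only through its CV scores. The Paneth value and the enteroendocrine median are therefore descriptions only. Of 3 tested fetal-type genes, none was called and the median was -0.57, and 1 and 2 of them fell with equal totals and with the median ratio.

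Genes used in every cell were listed for comparison. Of 20 tested, 3 rose (Ywhaz, Pgk1 and Rpl7, whose start region is shared with Rdh10), none fell, and the median was 0.32, against 9.53% rises among all regions. Without EN replicate 1, 8 rose. None of the 20 was called with equal totals or the median ratio, and 1 rose and 1 fell after quantile normalization. Of 18 markers of other cell types, 12 had no region at a start site, 4 were under the filter and 2 fell, Col1a1 of fibroblasts (-1.29) and Kit of mast cells and pacemaker cells (-0.99). The scores of the 6 regions summed to 70 to 86 in CV, 57 to 59 in ENR and 27 to 41 in EN, and RNA of the 10 markers with a row summed to 7.10 to 9.31 TPM in CV and 22.6 to 28.3 TPM in EN. The part of these cells in the results was not tested.

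Other chromatin readouts from libraries of the same cultures are given for the changed regions. They were not tested, and the counts are of regions whose EN and CV libraries did not overlap. H3K27ac, a mark of active promoters and enhancers, was above CV in EN at 74.6% of the 272 rises of at least 2-fold and below it in 0, against 33.9% and 10.8% of all regions tested. At the 748 falls of at least 2-fold it was below in 49.9% and above in 0.134%. Chromatin accessibility by ATAC-seq was above CV at 36.4% of these rises and below at 47.2% of these falls, against 18.3% and 13.4% of all regions. H3K27me3 was above CV at 19.4% of these falls and 6.99% of these rises, against 9.12% of all regions, and below CV at 1.60% of these falls and 6.99% of these rises, against 2.43% of all regions. Its median score was 18.3 at these falls and 6.78 over all regions.

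H3K27ac at Sis went from a mean score of 4.67 in CV to 121 in EN, and at Lgr5 from 80.7 to 8.67. H3K27me3 was at 6.33 ± 4.04 (SD, n = 3) in CV and a mean of 24.0 in EN at Ascl2, and at 9.67 ± 7.09 in CV and 42.7 ± 19.4 in EN at Hoxc6. At G6pc, where H3K4me3 rose, it was at 24.3 ± 15.3 in CV and 7.67 ± 2.08 in EN. At Mdga2 its mean was 19.7 in CV and 20.3 ± 15.9 in EN, with a spread close to the level.

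Of 12806 genes with a tested promoter region, 7478 had a row in the RNA table, which is limited to transcripts whose proteins were quantified. The RNA table covers fewer of the genes with a fall of at least 2-fold (161 of 576, 28.0%) than of those with a rise of that size (105 of 193, 54.4%). Of the 161 genes, RNA was below CV without overlap in 143 (88.8%) and above in 8, against 58.6% and 24% of all 7478 genes. Of the 105 genes, RNA was above in 61 (58.1%) and below in 25 (23.8%). Median RNA differences were -2.31 for these falls, 0.55 for these rises and -0.41 for all genes on the log2(TPM + 1) scale. Across the 7478 genes the differences of mark and RNA had a Pearson r of 0.544 and a Spearman rho of 0.531, as a description of genes that are not independent.

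ENR organoids, grown in the standard medium, mostly lay between. Their mean was between CV and EN at 205 of the 272 rises of at least 2-fold (75.4%) and at 667 of the 748 falls (89.2%). The median step from CV to ENR was 0.46 for these rises and -0.59 for these falls, and from ENR to EN 0.89 and -0.95. Because the regions were called on the outer groups, these steps are a description. Some genes departed from this order, with Lgr5 at 66, 74 and 61 in ENR against 62, 62 and 57 in CV, and Creb3l3 at 22, 25 and 20 in ENR against 34, 45 and 42 in CV.

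Binding of Hnf4g was read from 1 library per culture, with 84340, 352600 and 1816497 reads in the regions for CV, ENR and EN, so it has no replicate check. In EN, the median region with a rise held 132 reads, the median region with a fall 32 and the median region tested 52. These reads were not adjusted for width or accessibility. In the same order, median widths were 1605, 1089 and 1288 bp and median ATAC-seq scores 95.8, 21.6 and 53.9. The CV library had the same order, with medians of 3, 0 and 2 reads. A link between binding and the change of the mark was not tested. At the internal start site of Hnf4g itself there were 22 reads in EN and 0 in CV, at Sis 16 and 0, and at H2-T3 604 and 8. The 22 and 16 reads lie below the 52 of the median region tested. At the low depth of the CV library, a count of 0 there does not show a gain in EN.

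The central 300 bases of each region were searched on both strands for short motifs, of which some are given here. The GATA factor motif, spelled AGATAAG, was in 4.41% of the rises of at least 2-fold (12 of 272), 1.07% of the falls of that size and 2.01% of all regions with a full window. The motif of TCF/LEF, the factors of Wnt signalling, spelled ATCAAAG, was in 2.94%, 1.88% and 2.13%. The HNF4 motif, spelled CAAAGTCCA, was in 0.735%, 0.268% and 0.569%, that is in 2 rises and 2 falls. The GC box, spelled GGGCGG, was in 48.9%, 48.4% and 48.9%. Over all called rises with a full window the shares were 1.35% (GATA), 2.06% (TCF/LEF), 0.355% (HNF4) and 64.0% (GC box). Over all called falls they were 1.27%, 1.66%, 0.195% and 49.1%. The GATA motif was thus in a smaller share of all rises than of all regions. A match is a description of letters, and its absence says nothing about a factor.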

How the data were processed

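H3K4me3 was measured by ChIPmentation. Paired-end reads had been aligned to mm9 with BWA, filtered, freed of duplicates with Picard and called into peaks with MACS 2.0. The authors deposited for each region of the union of peaks a normalized score, a read count scaled between libraries and rounded; the scaling is not given in the sources used here, so depth and counting error per library are unknown. RNA values are TPM as the authors deposited them from kallisto, for transcripts whose proteins were quantified, and were summed here per gene. Kallisto is listed as version 0.43.0, while the paper names a later release. Expected counts and mRNA copies (other values) were also deposited and not used. H3K27me3 scores are for regions extended to 1000 bp. Hnf4g values are raw read counts per region as deposited. Further H3K4me3 samples of the series without a column in the table were not analysed here.

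Of the regions, those with a mean score of at least 10 over 9 libraries were fitted on log2(score + 1), a pseudocount of 1, with limma 3.58.1 in R 4.3.3 (culture as factor, trend of the spread on the mean, Benjamini-Hochberg adjustment). SE is the moderated standard error. The fit was tested on simulated data. An exact permutation test of 3 against 3 libraries cannot go below 0.1 and was not used. Start sites, exons and sequences came from GENCODE vM1 and the NCBIM37 genome (mm9), whose chromosomes all region ends lay within; 129 regions on other sequences were not annotated. Hnf4aos was matched through its RefSeq synonym 0610008F07Rik. A gene's promoter region is the region with the highest mean score within 500 bp of a start site. Coordinates are as deposited; whether counting starts at 0 or 1 is not stated.

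The text names the 10 largest rises and falls at promoters and the 3 largest farther away, among called regions without overlap, the genes the study names, called members of 15 gene lists, and genes called both ways. Of the genes the study names, Ptk6, Krt20, Anpep, Muc2, Dclk1, Reg4 and Defa6 had no tested promoter region. Members and lists were chosen with earlier results of these data known. Some groups of neighbouring regions are not reported here. Alternatives concerned pseudocount, scale, spread, filters, scaling, samples, thresholds, distance and blocking.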

Additional observations from a re-analysis of the deposited data

Results flagged for a closer look

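In 8 of 78 groups of 4 RNA libraries checked (26 genes in CV, ENR and EN), 1 library lay far from the other 3 by Dixon's criterion on the gap to the nearest value over the range, at the 95% level. Chance gives about 1 in 20 groups. The H3K4me3 groups hold 3 libraries and were not checked this way. In EN, the lowest library for Lgr5 was at 0.198 TPM (others 0.592 to 0.660), for Cd44 at 0.824 TPM (others up to 1.63) and for Smoc2 at 15.6 TPM (others 16.8 to 17.0). The highest EN library was at 0.551 TPM for Axin2 (others 0.326 to 0.355) and at 395 TPM for Alpi (others 363 to 364). In CV, the highest library was at 195 TPM for Smoc2 (others 174 to 177) and at 41.1 TPM for H2-Ab1 (others 36.0 to 36.8). In ENR, the highest library for Hnf4a was at 242 TPM (others 235 to 236). For Lgr5, Cd44, Axin2, Smoc2, Alpi and H2-Ab1, CV and EN did not overlap with these libraries included.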

How the results depend on the processing

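At an adjusted p under 0.01, 554 regions were called, 197 higher and 357 lower, and 85.8% of the higher ones lay near a start site. Under 0.001 the counts were 19, 1 and 18, and the shares near a start site 100% and 88.9%. Within 1000 bp of a start site lay 92.1% and 85.3%. With no trend of the spread, the share of rises near a start site was 85.4%. A mean score of at least 20 gave 585 falls and shares of 93.3% and 90.4%, at least 5 gave 1574 falls and 84.5% and 71.5%, and scores above 0 in at least 3 libraries gave 3812, 2139 and 1673 regions and 34.7% and 56.8%. The fit of the 6 EN and CV libraries alone gave 836, 394 and 442. Quantile normalization gave 1611 and 568 higher (69.0% near a start site), equal totals 327 and 1580 (82.3%, median of all regions -0.080), and the median ratio 295 and 1715 (80.7%, median -0.10). Quantile normalization without EN replicate 1, chosen after seeing the data, gave 1806 falls and 63.3%. Leaving out 1 library in turn gave 685 to 4476 changed regions, 288 to 2952 higher, 397 to 1524 lower, shares near a start site of 84.5% to 91.7% and 77.4% to 83.7%, and a median of 0.04 to 0.20.

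The culture numbers 2 and 4 are shared by EN and CV. Deviations of same-numbered libraries from their group means correlated between -0.51 and 0.47 (7 pairs) and those of others between -0.55 and 0.50 (20 pairs). With so few pairs and ranges that overlap, whether same-numbered libraries share a culture cannot be told. With the number as a replicate block, 945 regions were called, 424 higher and 521 lower, and 80.7% and 84.5% lay near a start site.

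Of the 116 named regions, 104 were called, and between 51 (without CV replicate 4) and 104 of these were called the same way under the other fits. Signs turned at regions that were not called, namely the Axin2 promoter (quantile -0.352, also without EN replicate 1 -0.523, and 1 library left out -0.077 to 0.594), Myc (block 0.082, 1 library left out -0.143 to 0.095), Mki67 (quantile -0.043, also without EN replicate 1 -0.183, median ratio -0.0080), the first start of Hnf4g (quantile -0.024, also without EN replicate 1 -0.021, totals -0.172, ratio -0.195, 1 library left out -0.182 to 0.190), Hnf4a (block 0.049) and a Mecom region (quantile -0.214, also without EN replicate 1 -0.471, 1 library left out -0.012 to 0.855). Of the called regions, signs turned at Cdkn1a (quantile -0.0021), Aamp (quantile -0.032, also without EN replicate 1 -0.00056) and Sgms1 (-0.104 and -0.015). The cause was not tested. Depth is unknown, so what it limits could not be given.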
